A study of Mus musculus with 8 samples.

Results

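The baseline expression of a transfected neuroblastoma line was read from its control libraries: Neuro2a cells that received a plasmid for sadCas9-VP64 and no guide RNA. The labels list 4 such control samples among 8 in the series. Counts of 3 of them, replicates 2, 3 and 4, were used, and replicate 5 was not analysed here. Members were chosen by their label, with earlier results of these data known. The libraries that also received a guide were left out of every value below. Neuro2a is a line from a mouse neuroblastoma. sadCas9-VP64 is a Cas9 of Staphylococcus aureus without cutting activity, fused to a transcriptional activator, so all cultures described here were given the activator without a guide to direct it. The labels state no untransfected sample and no plasmid amount for the controls. The cells grew in EMEM with serum and antibiotics, and libraries were made from poly(A)-selected RNA, which under-represents transcripts without a poly(A) tail. Nothing in the labels says that the replicates were separate cultures, so the spread between them may be technical.

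Neuroblastoma arises from the sympathoadrenal lineage, the branch of the neural crest that forms sympathetic neurons and the chromaffin cells of the adrenal gland. That lineage is specified by a circuit of transcription factors (Phox2a, Hand2, Gata2, Gata3, Insm1 and others). Its mature cells make noradrenaline from tyrosine and store it in granules with chromogranins. Human neuroblastoma lines are described as holding an adrenergic state built on this circuit or a mesenchymal state with Prrx1, Yap1 and Fn1.

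Read counts were divided by each gene's summed exon length and scaled to a sum of 1000000 per library (TPM), so a value is a share of the library and not an amount per cell. A gene counts as expressed below when it reached 1 TPM in all 3 libraries, and undetected when it had 0 counts in all 3. The libraries held 30356308, 29739422 and 32377208 gene-assigned reads in replicates 2, 3 and 4. A count of 0 allows a level of up to 3 counts. For a gene of 1000 bases that limit is 0.320 to 0.356 TPM, and it covers counting error only.

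Of 55367 gene models, 13279 were expressed (24%), 32154 were undetected (58.1%) and 9934 lay between. Among 21598 protein-coding genes, 11316 were expressed (52.4%), with a median of 28.5 TPM. A further 6819 protein-coding genes (31.6%) had no read in any library. The 52.4% is the share to set beside counts of listed protein-coding genes below, and 24% the share for all models. In every library 8508 protein-coding genes reached 10 TPM, 1616 reached 100 and 102 reached 1000. The line between expressed and low is not a gap in the data: 1802 genes had a mean between 0.5 and 1 TPM and 1587 a mean between 1 and 2. Expression was concentrated in few genes. The top 1000 genes of at least 200 bases held 55.6, 55.9 and 57.5% of all TPM, and the top 10 held 7.52, 7.19 and 7.73%.

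**Figure D1:**
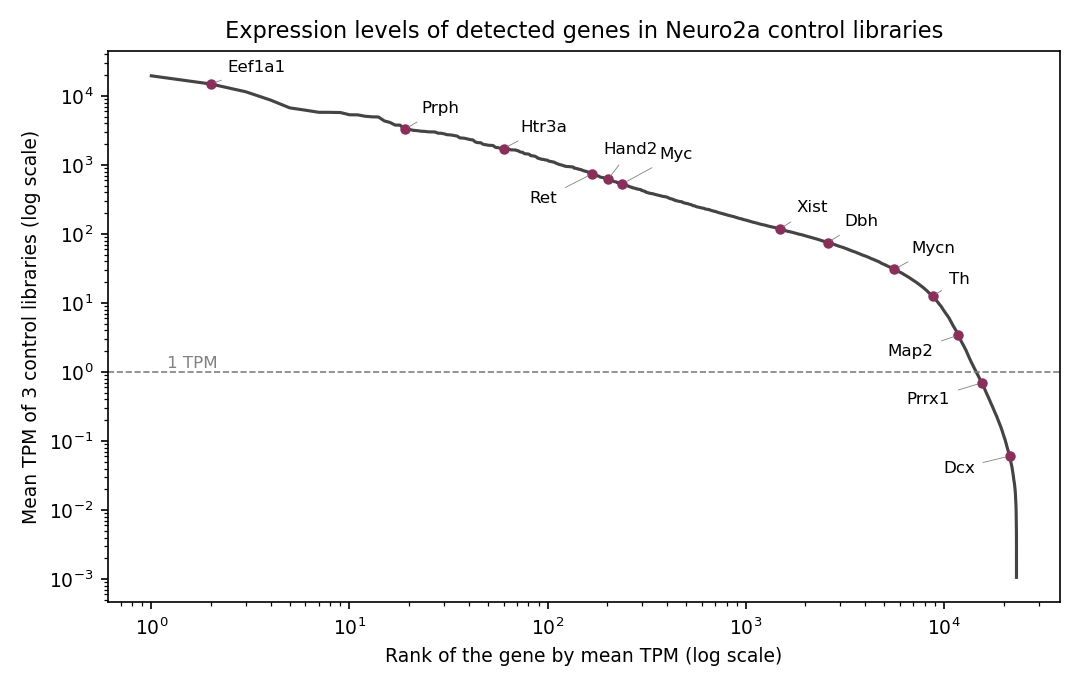
Mean TPM of the 3 control libraries (log scale) against the rank of each detected gene (log scale), with points marking named genes. The curve falls slowly through the housekeeping and lineage genes at the left, crosses 1 TPM (dashed line) and drops steeply among genes with a few reads; the regulator Hand2 and the receptor gene Ret lie far above Th and Map2.

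The upper end of the ranking was held by protein synthesis, respiration and glycolysis, with 1 neuronal gene among them. Eef1a1, the factor that brings aminoacyl-tRNA to the ribosome, was the gene of highest mean level among models of at least 200 bases, at 14619.9, 14227 and 15626 TPM in replicates 2, 3 and 4. Eef2, which moves the ribosome along its message, stood at 8688, 8712 and 8627 TPM. Their order was the same in every library. The mitochondrially encoded oxidase subunit mt-Co1 was second at 12542, 10302 and 11473 TPM, lowest in replicate 3. Hsp90ab1, a cytosolic chaperone, followed Eef2 at 6523, 6249.9 and 7295 TPM. Mif, a cytokine that many cells make, stood at a mean of 5775 TPM and Bsg, a membrane partner of lactate transporters, at 5057 TPM. Ribosomal protein genes took 11 of the first 25 places, led by Rplp1 at 5437, 6144 and 5715 TPM, and the glycolytic genes Aldoa and Pgk1 stood at means of 3073 and 3002 TPM.

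Prph was the neuronal gene in that group, at place 17 with 3259, 3216 and 3346 TPM. It encodes peripherin, an intermediate filament of peripheral neurons, and its coefficient of variation over the 3 libraries was 2.01%. Htr3a, the A subunit of the serotonin-gated ion channel, was the 54th protein-coding gene at 1715, 1746 and 1708 TPM. Its partner subunit gene Htr3b was measured at 49.4, 52.3 and 43 TPM. The other 12 serotonin receptor genes held 2 with a few reads (Htr6 and Htr2b, both under 1 TPM on average) and 10 undetected. The expressed pair thus belongs to the ion channel class, and no gene of the G protein-coupled classes reached 1 TPM in all libraries.

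Several values at the upper end carry a limit from shared sequence, measured as the share of a gene's 50-base words that occur in another gene's transcripts. That share was 39.4% for Eef1a1, 33.1% for Rplp0, 53.9% for Pgk1, 5.13% for Aldoa and 0 for Prph and Htr3a. Reads from shared words may be lost or moved between copies, and the authors' treatment of them is not given in the sources used here. Mitochondrial genes have nuclear copies, and their values are given with that limit. mt-Co1, with 51.1% of its words shared, stood 201 times above mt-Co2, with 100% shared, although both encode subunits of 1 enzyme; the part of shared sequence in that ratio was not tested. A pair of very short models outranked most genes: Gm23935, of 57 bases, at 19481 TPM and Gm10736, of 78 bases, at 6191 TPM, each with every word shared. Models under 200 bases held 2.88 to 3.19% of TPM but 0.0568 to 0.0603% of counts, so they are left out of the ranking above.

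The sympathoadrenal circuit was expressed nearly in full. Of 23 regulators and receptors listed for this lineage, 20 were expressed, against 52.4% of all protein-coding genes, and their median was 36.9 TPM. Hand2, a basic helix-loop-helix factor needed for noradrenergic differentiation, stood at 604, 625 and 616 TPM in replicates 2, 3 and 4. Phox2a, a paired homeodomain factor that switches on the noradrenaline-making enzymes, stood at 496, 506 and 530.4 TPM. The coefficients of variation of Hand2 and Phox2a were 1.73 and 3.45%, beside a median of 6.55% over protein-coding genes of at least 10 TPM. The zinc finger factors Insm1 and Gata2 followed at 326 ± 19.9 and 152 ± 1.93 TPM (mean ± SD, n = 3 libraries, as for all such values below), and Tbx2, a T-box repressor, was measured at 157 ± 3.05 TPM.

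Not all members of the circuit were high. Gata3 stood at 13.1, 15.3 and 12.4 TPM and Isl1, a LIM homeodomain factor of sympathetic neurons, at 8.11, 8.21 and 7.84 TPM, both more than 10 times below Gata2. Gata4, better known from heart and endoderm, was at 139 ± 5.77 TPM, just below Gata2. Hand1, the relative of Hand2, had 4, 6 and 2 counts.

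Surface receptors of the lineage were led by Ret, the receptor tyrosine kinase for ligands of the GDNF family, at 749, 759 and 719 TPM. Its co-receptor genes, whose products bind the ligand and present it to Ret, were far lower. Gfra1 stood at 5.37, 5.15 and 4.75 TPM, Gfra2 at 2.96, 1.14 and 2.02 TPM, Gfra4 at 0, 2 and 1 counts and Gfra3 at 0. Ret exceeded Gfra1 by 139, 147 and 151 times in the 3 libraries. Among neurotrophin receptors, Ngfr (p75) was measured at 328 ± 22.8 TPM. Ntrk3 was at 6.67 ± 0.666 TPM and Ntrk2, the receptor for brain-derived neurotrophic factor, had 0 counts, which allows up to 0.0166 to 0.0184 TPM. Alk, a kinase mutated in some neuroblastomas, stood at 39.9, 37.8 and 27.6 TPM, lowest in replicate 4.

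Over a wider list of 26 receptor tyrosine kinases, drawn up after values were seen, 15 were expressed. That is 57.7%, near the 52.4% of all protein-coding genes. After Ret the highest were the collagen receptors Ddr2 and Ddr1, at 151 ± 22.7 and 117 ± 4.07 TPM, ahead of Pdgfrb at 55.9 ± 7.09 TPM and Fgfr1 at 55.1 ± 4.91 TPM. Undetected were Fgfr2, Fgfr4, Erbb4, Kit, Flt3 and Kdr besides Ntrk2, with limits of 0.0166 to 0.10 TPM. Egfr stood at 2.06, 1.38 and 1.13 TPM, just inside the threshold, and Met at 4, 0 and 0 counts. Each of the 12 kinases of at least 10 TPM was lowest in replicate 4, where 50.2% of all genes of that level were lowest; the relation of that library to gene length is given with the spread below.

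**Figure D2:**
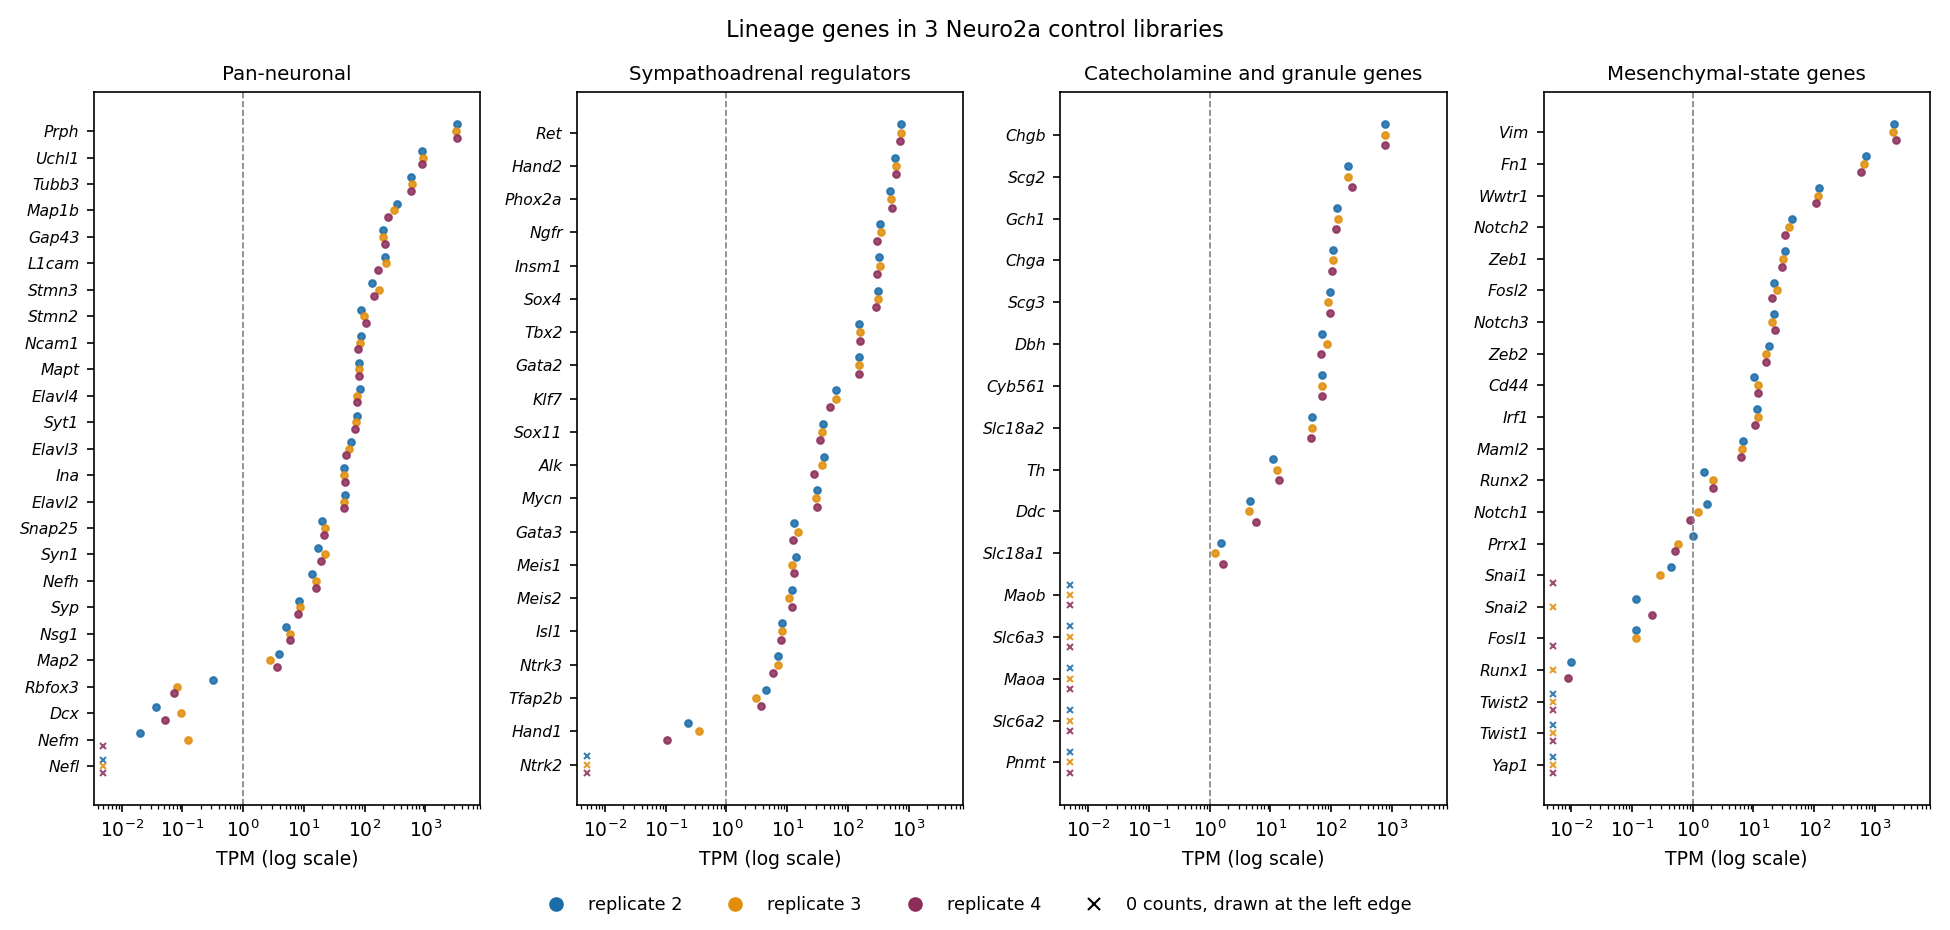
TPM (log scale) of genes from 4 lists in replicates 2, 3 and 4, with crosses at the left edge for 0 counts and a dashed line at 1 TPM. The points of a gene lie close together where it is above 1 TPM and scatter below it; the adrenergic lists sit mostly to the right of the line, while the mesenchymal list is split.

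General neuronal genes were expressed in 21 of 25 listed cases (84%, beside 52.4% of all protein-coding genes), with a median of 55 TPM. After Prph came Uchl1, a deubiquitinase abundant in neurons, at 887, 927 and 873 TPM, and Tubb3, the beta tubulin used as a neuronal marker, at 575, 601 and 581 TPM. Gap43, a growth cone protein, was measured at 201, 204 and 213 TPM, and these 3 genes varied little between libraries. Map1b, a microtubule-associated protein of growing axons, stood at 335, 306 and 245 TPM; it is a long gene of 15846 exonic bases and was lowest in replicate 4. The neuronal RNA-binding proteins Elavl4, Elavl3 and Elavl2 were at 77.9, 55 and 46 TPM.

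Genes of mature neurons ranged from undetected to above the median of expressed genes. The neurofilament genes split: Nefh stood at 13.7, 15.9 and 15.5 TPM, Nefm had 1, 6 and 0 counts and Nefl, the light chain on which the others assemble, had 0, which allows up to 0.0947 to 0.105 TPM. Prph exceeded Nefh by 218 times on average, and Ina, alpha-internexin, was measured at 44.9, 46.4 and 48.1 TPM. Map2, the microtubule-associated protein of dendrites, was at 3.93, 2.79 and 3.54 TPM. Dcx, expressed by migrating young neurons, had 4, 10 and 6 counts, and Rbfox3, the NeuN antigen, had 16, 4 and 4. The synaptic vesicle genes Syt1, Snap25, Syn1 and Syp stood at 72.6 ± 2.38, 21.1 ± 0.834, 19.5 ± 2.64 and 8.24 ± 0.240 TPM.

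Messages for each enzyme from tyrosine to noradrenaline were present, at unequal levels. Th, tyrosine hydroxylase, which makes the first product from tyrosine, stood at 11, 12.7 and 13.9 TPM. Ddc, the decarboxylase of the second step, was lower at 4.67, 4.41 and 5.74 TPM, and Dbh, which makes noradrenaline from dopamine, was higher at 71.2, 85.1 and 68.9 TPM. Replicate 4 was the highest of the 3 for Th and Ddc and the lowest for Dbh, so the ratio of these enzymes moved between libraries. Gch1, which makes the cofactor of Th, was measured at 125 ± 3.62 TPM. Of the vesicular monoamine transporters, Slc18a2 was at 47.4 ± 1.18 TPM and Slc18a1 at 1.46 ± 0.211 TPM.

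Granule cargo was abundant. Chgb, Scg2, Chga and Scg3, the granins that fill dense-core vesicles, stood at 778 ± 7.91, 202 ± 18.4, 108 ± 2.35 and 94.6 ± 5.03 TPM. Undetected were Pnmt, which turns noradrenaline into adrenaline, both plasma membrane transporters that take catecholamines back up (Slc6a2 and Slc6a3) and both monoamine oxidases (Maoa and Maob). The limits for these 5 genes were 0.0509 to 0.308 TPM. Messages to make and store noradrenaline were thus detected, and none to take it back up.

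Neuropeptide genes were read the same way. Of 24 listed, 5 were expressed: Vgf at 274 ± 18.7 TPM, Npy at 182, 240.1 and 251 TPM, Pcsk1n at 154 ± 3.57 TPM, Cartpt at 15.3 ± 1.05 TPM and Pomc at 5.90 ± 2.16 TPM. Npy, the co-transmitter of sympathetic neurons, was lowest in replicate 2. A further 12 had no read, among them Penk, Sst, Tac1, Cck and Calca, with limits of 0.0847 to 0.617 TPM.

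Genes that define other transmitter types were mostly absent, with 3 of 15 expressed. These were Ache, acetylcholinesterase, at 69.5 ± 4.31 TPM, and both tryptophan hydroxylases, which start serotonin synthesis: Tph2 at 10.1, 8.57 and 11.3 TPM and Tph1 at 6.46, 5.80 and 5.82 TPM. The serotonin transporter Slc6a4 stayed below 1 TPM in each library. Chat, which makes acetylcholine, had 12, 21 and 0 counts. Undetected were the transporters Slc18a3, Slc5a7, Slc17a6, Slc17a8 and Slc6a5 and the GABA-making enzyme Gad1, with limits of 0.0419 to 0.147 TPM.

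Factors that specify other neurons were expressed in 9 of 33 cases. Pax3, a factor of the early neural crest and dorsal neural tube, led at 40.8, 40.1 and 38 TPM, followed by Dlx1 at 11.7 TPM, Isl2 at 9.75 TPM, Nr4a2 at 9.54 TPM and Pou4f1, a sensory neuron factor, at 8.13 TPM. All were well below the Phox2a and Hand2 levels. Pax6, Dlx2 and Lhx6 were also expressed, at means of 6.32, 5.62 and 3.13 TPM. The 16 undetected genes included Otx2, Neurod6, En1, En2, Lmx1a, Pitx3, Neurog1, Neurod1, Neurod2, Neurod4, Nkx2-1, Nkx2-2, Dlx5, Pax2 and Pax7. Their limits were 0.0546 to 0.233 TPM.

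The mesenchymal list was split. Of 21 genes, 12 were expressed (57.1%, beside 52.4% of all protein-coding genes), and the median over the list was 6.50 TPM. Vim, an intermediate filament that many cultured cells express, was measured at 2031, 1984 and 2265 TPM and Fn1, fibronectin, at 708, 665 and 580.5 TPM. Wwtr1 (Taz), a co-activator of the Hippo pathway, was at 119.9, 116 and 108 TPM, while its close relative Yap1 had 0 counts, which allows up to 0.0346 to 0.0384 TPM. The other regulators on the list were split as well. Prrx1 stood at 1.02, 0.568 and 0.501 TPM, Twist1 and Twist2 had 0 counts, and Snai1, Snai2, Fosl1 and Runx1 were all below 0.5 TPM in each library. Zeb1, Zeb2, Notch2 and Notch3 were expressed at 31, 16.6, 38.7 and 21.7 TPM. Fosl2, Irf1, Maml2 and Runx2 were expressed at means of 22.1, 11.3, 6.50 and 1.95 TPM.

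Markers of other cell types served as a check of the label. Glial and Schwann lineage genes were expressed in 4 of 16 cases (Sox9, Erbb3, Cnp and Mbp), with Sox9 at 88.9, 95.3 and 92.3 TPM. Of the other genes on that list, Sox10 had 6, 0 and 0 counts, and Foxd3, Fabp7, Olig1, Olig2 and Slc1a3 had 0. Blood and immune markers were expressed in 2 of 13 cases, and the pan-leukocyte gene Ptprc had 0, 0 and 2 counts. Endothelial markers reached 1 TPM in 2 of 7 cases, epithelial markers in 1 of 8, fibroblast markers in 3 of 9, muscle markers in 2 of 8 and liver and red cell markers in 0 of 8. Among those undetected were Kdr, Epcam, Krt5, Krt18, Krt19, Cldn4, Col3a1, Thy1, Fap, Myod1, Itgam, Cd3e, Cd8a, Ms4a1, Lyz2, Alb, Apoa1, Serpina1a, Hba-a1, Hbb-bs and Hbb-bt. Limits for undetected members were 0.0517 to 0.270 TPM for immune, 0.146 to 0.248 for epithelial, 0.0326 to 0.119 for fibroblast and 0.137 to 0.506 for liver and red cell markers. For Itgam, Serpina1a and the globin genes, more than 50% of the sequence recurs in other genes, and the part of this in their 0 counts was not tested.

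A few genes of these lists stood far above the rest of their list. Cd74, the chaperone of MHC class II molecules, was at 146, 155 and 138 TPM. The class II chains it serves, H2-Aa, H2-Ab1 and H2-Eb1, had 0 counts, and Ciita, their activator, had 7, 8 and 0 counts. H2-DMa, which loads peptides on class II molecules, stood at 14.3, 17.5 and 12.4 TPM. Acta2, smooth muscle actin, was at 149, 164 and 201 TPM while Myh11, the myosin of the same muscle, had 0, 6 and 10 counts. Pdgfrb, a receptor of pericytes and fibroblasts, was expressed at 60.3, 59.7 and 47.7 TPM. Of the other fibroblast markers, Pdgfra stood at 7.18 ± 0.436 TPM and Col1a2 at 2.32 ± 0.198 TPM, while Col1a1 had 22, 4 and 12 counts and Col3a1 had 0.

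Within the Sox family 6 of 19 genes were expressed. Sox4, Sox11 and Sox12, the group expressed in postmitotic neuronal precursors, were measured at 307 ± 16.5, 36.9 ± 1.77 and 163 ± 6.31 TPM. Sox8 and Sox9, of the group that also holds Sox10, stood at 168 ± 2.10 and 92.2 ± 3.19 TPM. The neural stem cell group was undetected: Sox1, Sox2 and Sox3 had 0 counts, as did Sox7, Sox13, Sox14, Sox17 and Sox21, with limits of 0.0662 to 0.173 TPM.

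Hox genes, which record position along the body axis, were read from 1 cluster of 4. The 11 genes of the HoxA cluster, the 10 of HoxB and the 9 of HoxD had 0 counts in all 3 libraries. In the HoxC cluster, on chromosome 15, 5 of 9 genes were expressed and 10952 reads were counted in all. Hoxc10 (chr15:102966796-102971893, GRCm38) was highest at 108, 97.5 and 113 TPM, and Hoxc9 next to it (chr15:102976439-102985099) stood at 47.4, 41.5 and 43.5 TPM. The levels of this pair do not overlap. Hoxc6 was at 16.9, 20 and 17.1 TPM, Hoxc4 at 16.1, 16.9 and 20.2 TPM and Hoxc8 at 5.07, 4.77 and 3.35 TPM. Hoxc6 and Hoxc4 do not differ beyond their spread. Hoxc5 lay at the threshold, at 1.03, 1.38 and 0.967 TPM. Beyond Hoxc10 the signal ended: Hoxc11 had 16, 0 and 0 counts, Hoxc12 had 2, 0 and 0 and Hoxc13 had 0. The few reads of Hoxc11 and Hoxc12 were all in replicate 2. The limits for the undetected Hox genes were 0.0532 to 0.407 TPM. Of the exon bases of Hoxd3 and Hoxd4, 62.3 and 52.3% overlap another gene on the same strand. The part of this in their 0 counts was not tested.

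Genes linked to sex and dosage gave an uneven picture. Xist, the RNA that coats an inactive X chromosome, had 22463, 18597 and 13852 counts and was measured at 147, 123 and 82.3 TPM in replicates 2, 3 and 4. Its level in replicate 4 was the lowest, and the part of that library's other differences in this was not tested. The Y-linked genes Ddx3y, Uty, Kdm5d, Eif2s3y, Zfy1 and Zfy2 had 0 counts, and Sry had 3, 1 and 2, with limits of 0.0211 to 0.124 TPM where the count was 0. Of 181 protein-coding Y models 179 were undetected, and the 1 expressed, Gm47283, had 391, 345 and 307 counts. The labels give no sex for the line. On the X chromosome 352 of 927 protein-coding genes were expressed (38%), with a median of 22 TPM. On the autosomes the corresponding figures were 10946 of 20404 and 28.8 TPM.

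Germline and early embryo genes were partly on. Rhox5, a homeobox gene of the reproductive tract and placenta on the X chromosome, stood at 506, 571 and 569.6 TPM, and 14 of 42 members of its cluster were expressed. Between 44.7 and 100% of the 50-base words of Rhox2a to Rhox2h also occur in another gene, and how reads were split over these copies is uncertain. Dazl, an RNA-binding protein of germ cells, was at 164, 140.1 and 166 TPM, and the microRNA regulators Lin28a and Lin28b were at 34.4, 36.9 and 41.9 TPM and 10.2, 8.97 and 8.23 TPM. The core pluripotency factors were not read with them: Sox2 and Zfp42 had 0 counts, Pou5f1 had 1, 0 and 0 and Nanog had 0, 6 and 2. Ddx4, another germ cell gene, had 6, 6 and 0 counts.

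Imprinted genes, expressed from 1 parental copy in normal tissue, were on in 18 of 26 cases (69.2%). The shares were 52.4% over protein-coding genes and 24% over all gene models. Mest, Peg10 and Nnat led at 698 ± 34.7, 638 ± 26.2 and 512 ± 28.3 TPM, and Dlk1, a Notch-related surface protein of chromaffin cells, stood at 178 ± 5.20 TPM. Its imprinted neighbour Meg3 was at 1.39, 1.38 and 1.40 TPM. Igf2 had 0 counts, but 62.8% of its exon bases overlap another gene on the same strand, and the part of this in the 0 was not tested. H19, next to it, had 10, 2 and 18 counts. Ndn, Plagl1 and Zim1 had 0 counts, with limits of 0.0396 to 0.0963 TPM over the list.

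The libraries carried the messages of dividing cells. Of 24 proliferation genes 22 were expressed (91.7%, beside 52.4% of all protein-coding genes), and the list median was 71.8 TPM. Among them were Top2a at 221 ± 16.1 TPM, Ccnb1 at 192 ± 9.37 TPM and Mki67 at 91.2, 76.3 and 71.4 TPM. G1 control rested on part of its gene family: Cdk4 was measured at 303 ± 6.70 TPM and Cdk6 at 4, 2 and 3 counts, and Ccnd1 at 159.8 ± 15.1 TPM and Ccnd3 at 47.5 ± 1.39 TPM while Ccnd2 had 6, 0 and 0 counts. Brakes on that step were present, with Cdkn2a, which encodes p16 and p19Arf, at 169, 180.2 and 165 TPM, Cdkn1b at 149 ± 3.12 TPM and Trp53 at 121 ± 4.93 TPM. Cdkn2b, the neighbour of Cdkn2a, had 0, 3 and 0 counts. Message levels do not show whether the encoded proteins are intact.

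Myc was the Myc family member of highest level, at 537, 525 and 531 TPM. Mycn, the member amplified in part of human neuroblastomas, stood at 31.6, 29.9 and 30.7 TPM and Mycl at 6.29, 5.70 and 3.59 TPM. The ratio of Myc to Mycn was 17, 17.6 and 17.3 in the 3 libraries. Tert, the catalytic subunit of telomerase, was at 7.02, 5.46 and 5.47 TPM.

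Paired genes for the same function were used unequally. Eef1a1 exceeded Eef1a2, the form of neurons and muscle, by 40, 37.6 and 43.2 times, although Eef1a2 itself stood at 369 TPM. Of beta tubulin messages Tubb5 held 66.5 ± 1.92%, Tubb3 14.4 ± 1.40% and Tubb4b 8.34 ± 0.294%, and Tubb1 and Tubb4a were undetected. Of the words of Tubb4b 37.8% are shared, of Tubb2a 49.6% and of Tubb2b 36.9%, beside 0.0892% for Tubb5 and 0 for Tubb3. The part of this in the beta shares was not tested. Among alpha tubulins Tuba1b held 47.2% and Tuba1a 40.7%, a split that is uncertain because 66.7 and 72.9% of their words are shared. Cytosolic ribosomal protein genes were expressed in 83 of 84 cases at a median of 1184 TPM, and the exception, Rpl10l, is a copy known from testis.

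The 15 genes often used to scale qPCR were all expressed but covered a wide range, from 9.06 TPM for Tbp to 4941 TPM for Rplp0. Actb stood at 2807, 2873 and 3302 TPM, Gapdh at 2017, 1986 and 2319 TPM and Ppia at 1033, 1001 and 1117 TPM, each highest in replicate 4. Sdha, a subunit of succinate dehydrogenase, was steadier at 212, 210.3 and 215 TPM. Coefficients of variation were 8.99% for Actb, 8.74% for Gapdh and 1.23% for Sdha.

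Genes of amino acid supply stood high. All 15 genes listed as targets or parts of the Atf4 programme, which answers amino acid shortage and stress of the endoplasmic reticulum, were expressed at a median of 721 TPM. The share over all protein-coding genes was 52.4%. This list was drawn up after values were seen, so its count and median describe the chosen genes only. Atf4 itself was at 1615, 1639 and 1701 TPM, the asparagine synthetase gene Asns at 1072, 1023 and 1002 TPM and the leucine transporter gene Slc7a5 at 2026, 2058 and 1693 TPM. Trib3 and Ddit3, induced by stress in many cells, were measured at 721 ± 32.3 and 459 ± 9.35 TPM. Untransfected cells are not among these libraries, so these levels have no baseline. The glycolytic genes Ldha, Eno1, Gapdh and Pkm stood at 2819, 2450.2, 2107 and 1965 TPM.

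Large gene families of other tissues were nearly absent. Of 1408 olfactory receptor models 3 were expressed and 1342 undetected. Vomeronasal receptors were expressed in 0 of 357 cases, immunoglobulin segments in 1 of 381, T cell receptor segments in 0 of 262, keratins in 1 of 54, keratin-associated proteins in 0 of 58 and the prolactin family in 0 of 25. The exceptions were low: Olfr289-ps1 at 14, 17.4 and 5.49 TPM, Olfr69 at 3.83, 1.68 and 2.07 TPM, Olfr784 at 1.55, 1.41 and 1.68 TPM, Igkv13-78-1 at 2.35, 1.78 and 2.13 TPM and Krt8 at 1.08, 1.27 and 1.31 TPM. The limit behind a count of 0 is wide for short models, and the shortest immunoglobulin segments allow up to 35.6 TPM. Replication-dependent histones, whose messages end without a poly(A) tail, were expressed in 15 of 66 cases in these poly(A)-selected libraries of dividing cells.

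What expressed and undetected genes share beyond their levels can be read from their promoters. Vertebrate promoters fall broadly into those rich in CG dinucleotides, typical of housekeeping and developmental genes, and CG-poor ones with tissue-restricted use. Below are the 250 bases before the start site of 6 genes that span the profile, from RefSeq on GRCm38.p6, 5′ to 3′ on the gene's strand and with CG dinucleotides in capitals. They stand for the most abundant message (Eef1a1, chr9:78481725-78481974, minus strand), a lineage regulator (Hand2, chr8:57320733-57320982, plus), the highest neuronal gene (Prph, chr15:99054924-99055173, plus) and 3 undetected genes: the stem cell factor Sox2 (chr3:34649745-34649994, plus), Maoa (chrX:16619448-16619697, plus) and the liver gene Alb (chr5:90460620-90460869, plus).
Eef1a1: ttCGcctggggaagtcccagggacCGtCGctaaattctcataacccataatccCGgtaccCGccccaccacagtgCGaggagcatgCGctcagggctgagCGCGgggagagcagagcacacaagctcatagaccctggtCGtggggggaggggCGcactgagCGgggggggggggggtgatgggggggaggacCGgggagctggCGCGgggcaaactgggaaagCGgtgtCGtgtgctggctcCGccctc
Hand2: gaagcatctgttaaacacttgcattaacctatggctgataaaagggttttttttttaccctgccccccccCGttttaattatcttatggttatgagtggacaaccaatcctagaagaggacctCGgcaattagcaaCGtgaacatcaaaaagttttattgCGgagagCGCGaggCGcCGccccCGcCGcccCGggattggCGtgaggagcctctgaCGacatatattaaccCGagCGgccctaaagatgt
Prph: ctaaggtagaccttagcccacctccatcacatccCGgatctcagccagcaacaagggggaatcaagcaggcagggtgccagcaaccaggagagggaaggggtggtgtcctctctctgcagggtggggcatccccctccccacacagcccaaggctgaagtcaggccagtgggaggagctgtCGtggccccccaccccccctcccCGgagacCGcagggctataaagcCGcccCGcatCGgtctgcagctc
Sox2: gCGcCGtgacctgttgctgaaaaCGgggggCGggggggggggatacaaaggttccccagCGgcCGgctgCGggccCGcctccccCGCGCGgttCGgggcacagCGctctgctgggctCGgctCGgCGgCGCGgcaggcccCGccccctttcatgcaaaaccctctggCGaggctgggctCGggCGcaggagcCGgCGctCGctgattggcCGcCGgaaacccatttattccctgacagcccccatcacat
Maoa: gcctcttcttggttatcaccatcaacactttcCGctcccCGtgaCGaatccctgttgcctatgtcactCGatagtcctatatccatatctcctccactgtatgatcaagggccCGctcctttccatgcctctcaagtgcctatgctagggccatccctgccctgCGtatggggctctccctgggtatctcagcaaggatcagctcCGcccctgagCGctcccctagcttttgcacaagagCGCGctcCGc
Alb: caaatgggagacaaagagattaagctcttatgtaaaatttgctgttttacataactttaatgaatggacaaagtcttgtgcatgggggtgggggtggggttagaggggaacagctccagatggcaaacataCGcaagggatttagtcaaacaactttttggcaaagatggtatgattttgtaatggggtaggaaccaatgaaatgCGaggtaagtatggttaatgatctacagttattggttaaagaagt

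The Eef1a1 window holds 18 CG dinucleotides, Hand2 15, Prph 7, Sox2 27, Maoa 11 and Alb 2. The order of the CG counts is therefore not that of the levels: the window richest in CG of these 6 belongs to Sox2, which had no read. The letters TATAAA, searched on both strands, occur in the Prph window, starting 31 bases before the start site, and in none of the windows of Eef1a1, Hand2, Sox2, Maoa and Alb. A match of letters is a description and no evidence that the site is used.

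Over 16508 protein-coding genes with a promoter in the table, CG content and expression went together in a graded way. For every gene, the RefSeq start nearest the 5′ end of its model was used. Whether these cells use that start was not tested. The median count was 16 CG dinucleotides in 9043 expressed genes, 6 in 2543 low genes and 2 in 4922 undetected ones. Of genes with 0 or 1 CG in the window 7.03% were expressed, of those with 5 to 9 51.9% and of those with 25 or more 84%. Past 15 the share barely moved, from 81.5% upward, and even in the richest bin 7.22% of genes were undetected. TATAAA went the other way: it occurs in 5.62% of expressed, 11.7% of low and 23.7% of undetected genes, against 11.9% of all. Olfactory receptors, with a median of 1 CG over 931 windows, make up part of the undetected set.

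Some undetected developmental genes had CG-rich windows. Of all undetected protein-coding genes with a promoter in the table, 10.1% had 15 or more CG. Of the Hox genes with a promoter there (22 of 39), the median was 12 CG, and 7 of 21 undetected ones had 15 or more. For the Sox family the median was 18, with 5 of 5 undetected genes at 15 or more. For the sympathoadrenal list it was 16, with 1 of 1. These shares are descriptions with no test.

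**Figure D3:**
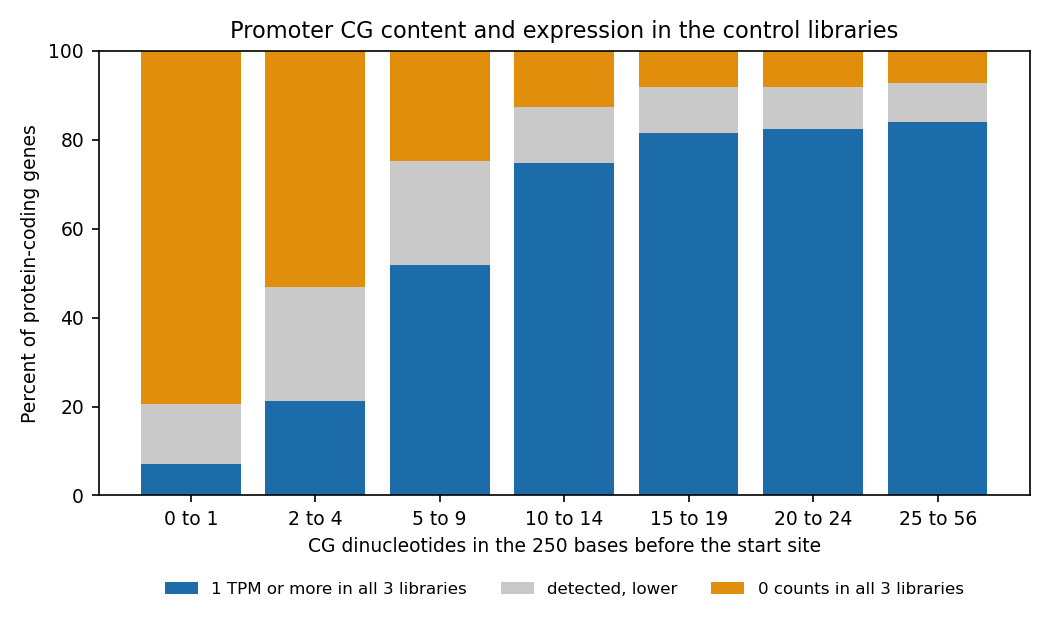
Percent of protein-coding genes that were expressed, low or undetected (stacked bars), by the number of CG dinucleotides in the 250 bases before the start site. The expressed share rises from 7.03% in the poorest bin to 84.0% in the richest, with most of the rise below 15 dinucleotides.

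The 3 libraries spread little for most genes. The common biological coefficient of variation, edgeR's estimate of the spread between libraries beyond counting noise, was 9.57% over the 13838 genes past its filter on low counts, with a median per gene of 8.82%. No pair of libraries looked like 1 library deposited more than once: differences between counts exceeded sampling noise by 5.98 times for replicates 2 and 3, 16.6 times for 2 and 4 and 14.1 times for 3 and 4 (chi-square per degree of freedom). Among 8751 protein-coding genes with a mean of at least 10 TPM, the SD of the log2 difference was 0.14, 0.20 and 0.18 for these pairs. More than 2-fold differences were found in 2, 2 and 3 of these genes. Replicates 2 and 3 were thus the closest pair, and replicate 4 stood apart from both. Over replicates 2 and 3 alone the common coefficient of variation was 6.62%.

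The 3 libraries differed along gene length, with replicates 2 and 4 furthest apart. Each library was set against the mean log2(TPM + 0.5) of the other pair, over all 9367 genes with a mean of at least 10 TPM. The genes were ranked by length and cut into 10 groups of nearly equal size. In the group of shortest genes the median difference was -0.04, 0.02 and 0.04 for replicates 2, 3 and 4. In the group of longest genes, of 9622 to 41619 exonic bases, it was 0.13, 0.03 and -0.16. On this measure replicate 4 went down with length and replicate 2 went up. Replicate 3 stayed nearly flat because it lies between the other libraries it is set against. Against replicate 2 alone, the median of replicate 3 went from 0.04 in the shortest group to -0.07 in the longest. That of replicate 4 went from 0.06 to -0.19. The low replicate 4 values of the long genes Map1b, Alk and Fn1 have the same direction. RNA quality values are not given in the sources used here, and the cause was not tested.

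**Figure D4:**
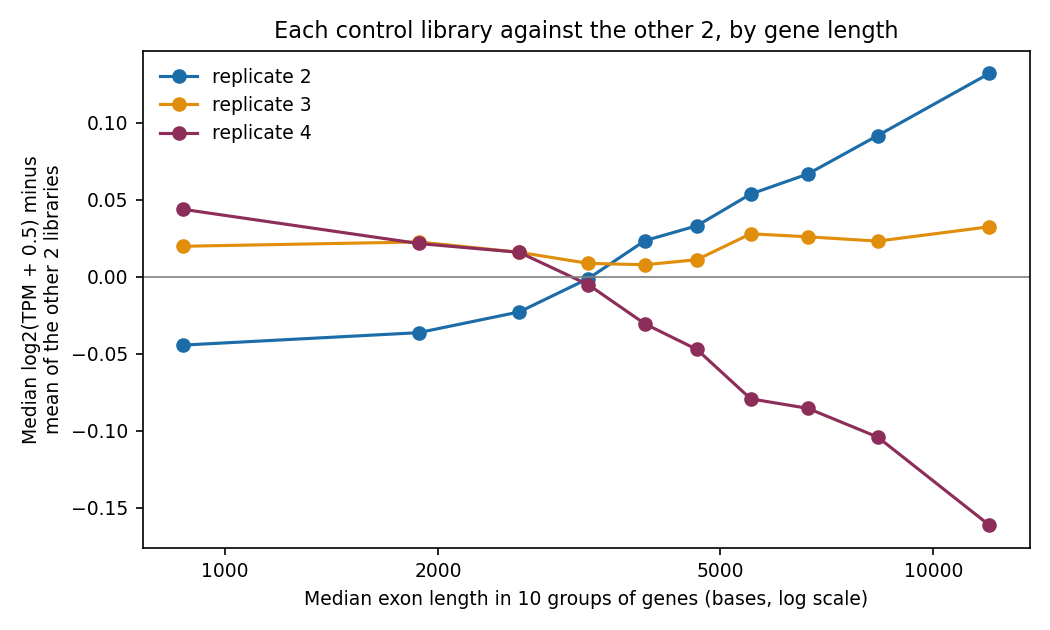
Median log2 difference of each library from the mean of the other pair (vertical axis) against the median exon length of 10 groups of genes of rising length (log scale). The replicate 4 line falls from 0.04 to -0.16 and the replicate 2 line climbs from -0.04 to 0.13, while replicate 3 stays between 0.01 and 0.03.

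Medians of RNA classes differed between the libraries too. Against the other pair, replicate 4 had a median log2 difference of -0.41 in 37 snoRNA genes, -0.48 in 25 miRNA genes, -0.24 in 32 antisense genes and -0.19 in 80 lincRNA genes. The value for 8751 protein-coding genes was -0.05. Processed pseudogenes went the other way, at 0.10 over 202 genes. On the same measure the 37 snoRNA genes stood at 0.16 in replicate 2 and 0.38 in replicate 3. Replicate 4 was thus not the only library set apart in that class. Lowest in replicate 4 were 21 of the 37 snoRNA, 15 of the 25 miRNA, 23 of the 32 antisense and 43 of the 80 lincRNA genes. The share of protein-coding genes was 50.6%, and 55 of the 202 processed pseudogenes were lowest there. Not every member therefore moved with the median of its class. Of 5 listed long noncoding RNAs of at least 10 TPM, 3 (Malat1, Xist and Gas5) were lowest in replicate 4, while Snhg12 was highest there, at 345, 369.9 and 375 TPM, and Snhg1 was lowest in replicate 3, at 311, 299 and 301 TPM. Malat1, a long RNA held in nuclear speckles, stood at 49.1, 39.9 and 26.5 TPM and Neat1, the RNA of paraspeckles, at 3.11, 2.04 and 1.95 TPM, both lowest in replicate 4. An rRNA model on chromosome 17, CT010467.1, stood at 2944, 2435 and 1913 TPM. The values of Xist above have the same order.

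In the other direction, 19 of 20 glycolytic and hypoxia-responsive genes were highest in replicate 4, where 27.9% of all genes of at least 10 TPM were highest. The list was drawn up after these values were seen, so its count describes this library only. Aldoa was measured at 2869, 2917 and 3435 TPM, Tpi1 at 1471, 1486 and 1866 TPM and Slc2a1, the glucose transporter Glut1, at 83.6, 75.2 and 108 TPM. Adm, the peptide adrenomedullin, stood at 26, 23.3 and 39.3 TPM, Bnip3, a mitophagy receptor, at 329, 286 and 418 TPM and Ndufa4l2 at 195, 232 and 292 TPM. The exception was Vegfa, at 683, 633 and 584 TPM, lowest in replicate 4. Mitochondrially encoded genes were highest in replicate 2 in 12 of 16 cases and lowest in replicate 3 in 13. Whether these orders come from the cells or from the preparation of the RNA was not tested.

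The genes of largest spread were short models with few reads. Ranked by edgeR's gene-wise biological coefficient of variation, a fitted spread drawn towards the trend over all genes, the 10 most dispersed genes of at least 10 TPM were mostly short: 6 are shorter than 200 bases and all have between 10 and 78 counts per library. They include the microRNA model Mir186, the 7SK model Rn7sk and the uncharacterised 5330439M10Rik, at 8.11, 6.81 and 23 TPM. Among protein-coding genes the most dispersed were mt-Nd3, Gm5617 and mt-Nd4l, with fitted coefficients of 27.1, 26.1 and 26%. Their plain coefficients of variation, SD over mean TPM, were 37.1, 36.3 and 38%, and of the words of mt-Nd3 98% occur in another gene. Against the mean of the other pair, the most distant protein-coding gene of replicate 2 was Pm20d2 at 0.90 on the log2 scale, that of replicate 3 was mt-Nd3 at -1.03 and that of replicate 4 was Tmem223 at -0.97. The median plain coefficient of variation was 4.80% over 17 sympathoadrenal genes of at least 10 TPM and 2.69% over 10 catecholamine and granule genes. It was 6.55% over 8751 protein-coding genes of at least 10 TPM. Other lists lay on both sides, with 4.13% over 80 cytosolic ribosomal protein genes, 1.94% over 5 Tbx genes and 10.8% over 9 Klf genes. A low spread was thus not particular to lineage genes. The sets were not matched for level, and these values are a description with no test.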

How the data were processed

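The authors deposited whole-number read counts per gene, with no normalisation, in a table laid out as featureCounts writes it, per the file headers. A column of it holds the exon bases of every gene, summed. STAR 2.5.1b and featureCounts with the mm10 build are named per the submitters' processing notes. Strand use, annotation and the treatment of multi-mapping reads are not given in the sources used here. Without known strand use, reads of a gene and of an overlapping antisense gene cannot be told apart.

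Of 55367 gene names, 53365 occur in GENCODE M21, which supplied gene types and, on GRCm38, transcripts for the 50-base words. TPM was computed per library from counts and length. Spread was estimated with edgeR 4.0.16 in R 4.3.3 (filterByExpr, TMM, intercept only) and tested on simulated counts. Named genes were the 25 highest of at least 200 bases, the 5 highest and the undetected members of each list, the 10 most dispersed genes and the 5 highest and lowest genes of each library; others were named after their values were seen. The control libraries, the gene lists and the rules were chosen with earlier results of these data known, and the families of neuropeptides, kinases, GDNF co-receptors, serotonin receptors, MHC class II, nuclear RNA, Atf4 and hypoxia genes and those of the closing observations were added after values were seen. Patterns for T cell receptor and histone symbols were corrected in the same way. Alternatives changed the threshold, the unit, the length used and the libraries. Some members of the lists are counted in them but not reported here by name.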

Additional observations from a re-analysis of the deposited data

How the results depend on the processing

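The number of expressed genes stayed within 1.5 times of 13279 in every setting tried, from 10557 at 5 TPM to 14542 when the libraries were summed, and leaving out each replicate gave 13547 to 13779. Undetected genes numbered 33163 to 33573 with 1 replicate left out. Ranking by CPM, which leaves out length, kept 13 of the 25 top genes, and long genes such as Fn1 and Scd2 took the other places. Leaving out replicate 4 brought the common coefficient of variation from 9.57 to 6.62%, and over the 3 replicates left out in turn it lay between 6.62 and 11.4%. Settings on the gene lists kept the number of expressed members between 164 and 196 of 324. No paired analysis was possible because only the control group is described and no test between groups was run. Depth limits statements on undetected genes to the level of 3 counts, which is highest for short genes.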

Other observations

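Other families of regulators were read by the same thresholds. Foxd1, a forkhead factor of stroma and of the early retina, led its family at 266, 267 and 256 TPM in replicates 2, 3 and 4. Of 44 forkhead genes 15 were expressed (34.1%, beside 52.4% of all protein-coding genes). Tbx1, known from the pharyngeal arches, stood at 169, 165 and 163 TPM, next to Tbx2, and Tbx20 stood at 25.2, 25.9 and 26.1 TPM, while Tbx5, Tbx18 and Tbx19 had 0 counts. All 4 Id genes, inhibitors of basic helix-loop-helix factors, were expressed, with Id1 at 229.9, 223 and 227 TPM. Of 4 Tead genes, the DNA-binding partners of Yap1 and Wwtr1, 3 were expressed, led by Tead2 at 81.5, 78.3 and 75.8 TPM. Nr2f2, a nuclear receptor, stood at 73.5, 71.9 and 74.1 TPM and Nr3c1, the glucocorticoid receptor, at 52.2, 54.1 and 52.8 TPM.

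Adhesion and matrix genes were read by family. Cdh22 was the cadherin of highest level, at 109.9, 111 and 121 TPM, and Cdh2, N-cadherin, stood at 11.9, 11.8 and 11.5 TPM, with 4 of 23 expressed. Integrin subunits were expressed in 14 of 26 cases (53.8%), collagen chains in 21 of 44 (47.7%) and laminin chains in 6 of 11 (54.5%), all near the 52.4% of all protein-coding genes. The integrins of highest level were Itgb1, the common beta chain, at 1105, 1037 and 1089 TPM, Itgb5 at 186, 193 and 167 TPM and Itga6, a laminin receptor chain, at 159.7, 154 and 131 TPM. Laminin chains were present as Lamc1 at 176, 174 and 155 TPM, Lamb2 at 154, 142 and 141 TPM and Lama4 at 64.2, 62.9 and 58.3 TPM, while Lama1 had 0 counts and Lamb1 had 12, 4 and 5. Of collagen chains the highest was Col6a5 at 212, 199.7 and 165 TPM, ahead of the basement membrane chains Col18a1 at 77.4, 85.7 and 72.7 TPM, Col4a2 at 71.5, 85.4 and 72.1 TPM and Col4a1 at 38.3, 40.5 and 34.7 TPM.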
